A study of Mus musculus with 2 samples.

Results

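Myl10, Myl6, Myl12a, Myl12b and Myh9 encode myosin light chains and the heavy chain of nonmuscle myosin IIA, and all 5 were found by symbol among the 28692 genes of the count matrices. They were chosen by a measured value, the lower level of Myl10 over all cells of the knockdown library seen in an earlier look at these data, so that difference is given as a description. The tested library came from C57BL/6 mouse marrow cells carrying a short hairpin RNA (shRNA) against Cxxc5, a CXXC zinc finger protein, and its reference from cells carrying a control shRNA. Marrow enriched for stem and progenitor cells was infected with retrovirus, and GFP-positive LSK cells, the lineage-negative, Sca-1-positive, Kit-positive fraction rich in stem and progenitor cells, were sorted. Both cultures then ran for 3 days in 20% serum with 2 cytokines that drive myeloid differentiation, 10 ng/ml of GM-CSF and 10 ng/ml of SCF. Each library pooled 5 samples, so each condition had 1 library, no difference below has a replicate check, and no test of a difference was possible. The sources used here do not say if the same mice gave rise to both pools.

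Nonmuscle myosin II is the motor that pulls on actin filaments during cell division, migration and shape change. Each motor holds a pair of heavy chains, and each heavy chain carries an essential and a regulatory light chain. Myh9 is the IIA heavy chain, the form that predominates in blood leukocytes. Myl6 is the essential light chain that stabilizes the lever arm, and Myl12a and Myl12b are the nonmuscle regulatory light chains, whose phosphorylation by myosin light chain kinase switches the motor on. Myl10 is named for its similarity to regulatory light chains and was known as the precursor lymphocyte-specific regulatory light chain.

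The members lie at 4 places in the genome (GENCODE M21, GRCm38). Myl10 (ENSMUSG00000005474) is on the plus strand at chr5:136693146-136701094. Myl6 (ENSMUSG00000090841) is on the minus strand at chr10:128490860-128494145 and Myh9 (ENSMUSG00000022443) on the minus strand at chr15:77760587-77842175. Myl12a (ENSMUSG00000024048, chr17:70993656-71002878) and Myl12b (ENSMUSG00000034868, chr17:70973133-70990890) are neighbours on the minus strand with 2765 bases between them, and the lincRNA gene Gm26561 overlaps both on the other strand. A further gene entry named Myl12b, which the matrices do not list, overlaps both on their own strand. Whether the authors' counting could move reads between these overlapping entries was not tested, and their values are given with that limit.

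The 3 regulatory light chains are shown over the stretch where the annotated Myl10 coding sequence begins, because reads of near-identical genes can be split between them. Capitals mark bases that differ from Myl12a, and each line is read 5′ to 3′ on the coding strand (GENCODE M21, GRCm38). Myl10 is at chr5:136693383-136694288 in 2 exons (codons 1 to 30), Myl12a at chr17:70996719-70996808 and Myl12b at chr17:70977070-70977159, both in 1 exon (codons 25 to 54).
Myl10: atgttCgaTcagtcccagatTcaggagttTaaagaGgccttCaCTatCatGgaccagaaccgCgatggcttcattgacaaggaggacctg
Myl12a: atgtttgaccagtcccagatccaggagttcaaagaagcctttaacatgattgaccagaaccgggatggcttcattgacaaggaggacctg
Myl12b: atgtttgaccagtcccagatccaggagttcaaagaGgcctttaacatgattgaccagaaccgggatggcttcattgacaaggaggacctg
Of these 90 bases, 79 were the same in all 3 genes, 11 differed between Myl10 and Myl12a, and 1 differed between Myl12b and Myl12a. Over the whole coding sequence, identity was 96.5% between Myl12a and Myl12b (501 of 519 bases), 69.4% between Myl10 and Myl12a, and 68.8% between Myl10 and Myl12b. The libraries tag the 3′ end of transcripts. In the last 300 bases of the transcripts, the longest run shared by any pair of the 3 was 9 bases, between Myl10 and Myl12a.

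The promoters also differed in composition. A promoter here is the 250 bases before to 50 bases after a RefSeq start (GRCm38.p6), and CG pairs were counted because CXXC domains, the kind that names Cxxc5, are known to bind unmethylated CG pairs. The first of the 3 Myl10 promoters (chr5:136692896-136693195, plus strand) and the Myl12b promoter (chr17:70990467-70990766, minus strand) are shown as the members with fewest and most, with each CG in capitals, 5′ to 3′ on the gene's strand.
Myl10: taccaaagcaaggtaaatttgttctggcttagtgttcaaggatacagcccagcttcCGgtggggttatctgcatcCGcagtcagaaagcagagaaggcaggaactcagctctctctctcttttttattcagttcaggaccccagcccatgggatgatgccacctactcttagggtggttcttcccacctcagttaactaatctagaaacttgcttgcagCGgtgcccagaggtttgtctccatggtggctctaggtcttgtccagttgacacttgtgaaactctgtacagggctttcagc
Myl12b: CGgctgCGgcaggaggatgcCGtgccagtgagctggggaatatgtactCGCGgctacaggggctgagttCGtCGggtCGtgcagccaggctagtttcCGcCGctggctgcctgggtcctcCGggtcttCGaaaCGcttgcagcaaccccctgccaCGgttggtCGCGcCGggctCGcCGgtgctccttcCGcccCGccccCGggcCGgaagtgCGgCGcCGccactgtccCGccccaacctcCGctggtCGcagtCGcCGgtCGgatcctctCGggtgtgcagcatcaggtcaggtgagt
The 3 Myl10 promoters held 3, 6 and 3 CG pairs and the Myl12b promoter 33. The Myl12a promoter held 27, the Myh9 promoter 19, and the 2 Myl6 promoters 15 and 4, beside a median of 7 over all 32851 promoters. Of all promoters, 31.4% held 3 or fewer. A count of CG pairs says nothing here about binding of Cxxc5, which was not measured.

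The knockdown library held 6015 cell barcodes with 62910229 UMIs (unique molecular identifiers, which count each captured RNA molecule a single time) and the control library 2925 barcodes with 49333454 UMIs. Before filtering, 26 barcodes occurred in both libraries. After filtering, 6004 knockdown cells had a median of 10599 UMIs and 2912 control cells a median of 17197 UMIs. Levels are UMIs of a gene per 1e6 UMIs of the cells summed (counts per 1e6, CPM), and intervals are 95% and cover counting error only. Intervals from UMI sums leave out the spread between cells, so they are too narrow where cells differ by more than counting error. Cxxc5 had 1.16 CPM in the knockdown library and 9.38 CPM in the control library (log2 ratio of knockdown over control -3.01, -3.39 to -2.65). Markers of lymphoid cells summed to 17.6 and 17.1 CPM in the knockdown and control libraries, with 5 of 11 at 0 in each, and muscle markers to 2.40 and 3.63 CPM, with 3 and 4 of 7 at 0. Neutrophil markers were abundant, at 16840 CPM in the knockdown and 21790 CPM in the control library.

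Myl10 was the member with the largest difference. Over all cells it had 7958 UMIs or 127 CPM (124 to 129) in the knockdown library, against 13610 UMIs or 276 CPM (272 to 281) in the control library. The level was 2.18-fold lower in the knockdown library, a log2 ratio of -1.13 (-1.17 to -1.09). This placed Myl10 eighth from the lowest among the 4798 genes that reached 20 CPM in either library, whose median log2 ratio was 0.04, with 5% of genes under -0.24 and 5% above 0.22.

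The other 4 members, which share the motor, lay closer to the control. Myl6, the essential light chain, had 725 CPM in the knockdown library and 761.7 CPM in the control library (log2 ratio -0.07, -0.09 to -0.05). Myl12a had 332 CPM in the knockdown and 367 CPM in the control library (-0.15, -0.17 to -0.12), and Myl12b, the regulatory chain encoded beside it, 215 and 232 CPM (-0.11, -0.14 to -0.07). The heavy chain gene Myh9 had 41.0 CPM in the knockdown and 49.2 CPM in the control library (-0.26, -0.35 to -0.18). All 4 were lower in the knockdown library with intervals below 0. The share of all genes with such an interval was not computed, so nothing is read from that count. Of the 4798 genes of at least 20 CPM, 20.8% had a lower ratio than Myl6, 14.5% than Myl12b, 10.5% than Myl12a and 4.0% than Myh9. The interval of Myl10 lay below those of all 4. Myl10 and Myh9 were at least 1.2-fold lower, 2 of 5 members, beside 4.06% of all genes at that level (7.09% in either direction), and since this contrast chose the set nothing is read from that count. Myh9 stood at the line itself, 1.2-fold lower, and fell inside it under 3 of the other ways of computing the ratio.

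Because the cells had diverged during the culture, they were sorted into classes by summed marker levels, with none of the members used. The dendritic cell-like class was set by antigen presentation genes (120 knockdown and 100 control cells) and the mast cell or basophil-like class by genes such as Cpa3 and Gata2 (346 and 158). The late neutrophil-like class was set by S100a8, S100a9 and late granule genes (672 and 460) and the S100a8-gated class by S100a8 and S100a9 without the late granule genes (985 and 471). The monocyte-macrophage-like class was set by genes such as Csf1r and Ccr2 (533 and 383), and the protease-gated class by granule protease and associated genes such as Elane and Mpo (1896 and 661). The remaining 1452 knockdown and 679 control cells were ungated. The S100a8-gated and protease-gated classes are named by their gates because none of their markers was among their top 10 genes. The gates cut continuous ranges: 2422 knockdown and 1268 control cells lay within 1.5 times the monocyte gate, and 2393 and 1107 within 1.5 times the protease gate.

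Myl10 was at least 1.2-fold lower in the knockdown library in 6 of the 7 classes. In the S100a8-gated class it had 191 CPM in knockdown cells, against 470 CPM in control cells, a log2 ratio of -1.30 (-1.38 to -1.22). Late neutrophil-like cells had 176 CPM in the knockdown and 413 CPM in the control library (-1.23, -1.34 to -1.13), and protease-gated cells 129 and 277 CPM (-1.10, -1.17 to -1.03). In these 3 classes the knockdown level was more than 2-fold below the control level.

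Monocyte-macrophage-like cells had 153 CPM in the knockdown and 285 CPM in the control library (-0.90, -1.02 to -0.78). Ungated cells had 64.6 CPM in the knockdown and 111 CPM in the control library (-0.78, -0.90 to -0.66). Among the genes of at least 50 CPM in each class, 4.93% were at least 1.2-fold lower in S100a8-gated cells, 6.81% in late neutrophil-like, 2.33% in protease-gated, 5.71% in monocyte-macrophage-like and 2.95% in ungated cells. Myl10 ranked between second and sixth from the lowest in these 5 classes. Its rank was 80 of 2565 genes in mast cell or basophil-like cells and 2073 of 2550 in dendritic cell-like cells. These ranks use the Myl10 UMIs whose difference chose the set, so they are a description and no separate support.

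The other 2 classes stood apart. Mast cell or basophil-like cells had 237 Myl10 UMIs or 76.6 CPM in the knockdown library and 229 UMIs or 104 CPM in the control library (-0.45, -0.71 to -0.18), where 8.3% of genes were at least 1.2-fold lower. That direction depended on the gate: with all gates 1.5 times stricter, 211 knockdown and 106 control cells gave a log2 ratio of 0.22. Dendritic cell-like cells had 76 UMIs or 80.3 CPM in the knockdown and 95 UMIs or 69.2 CPM in the control library, a log2 ratio of 0.21 with an interval that spanned 0 (-0.24 to 0.66) and 0.00041 with gates 1.5 times looser, where 15.9% of genes were at least 1.2-fold lower. Few cells carried these sums: the 10 cells richest in Myl10 held 33.8% of them in knockdown and 61.6% in control mast cell or basophil-like cells, and 61.8% in knockdown dendritic cell-like cells. The intervals there are too narrow. Those of Myl10 in the other classes are too narrow as well, since its UMIs varied between cells by more than counting error there too. The plot of Myl10 levels by class sets these values side by side.

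**Figure D1:**
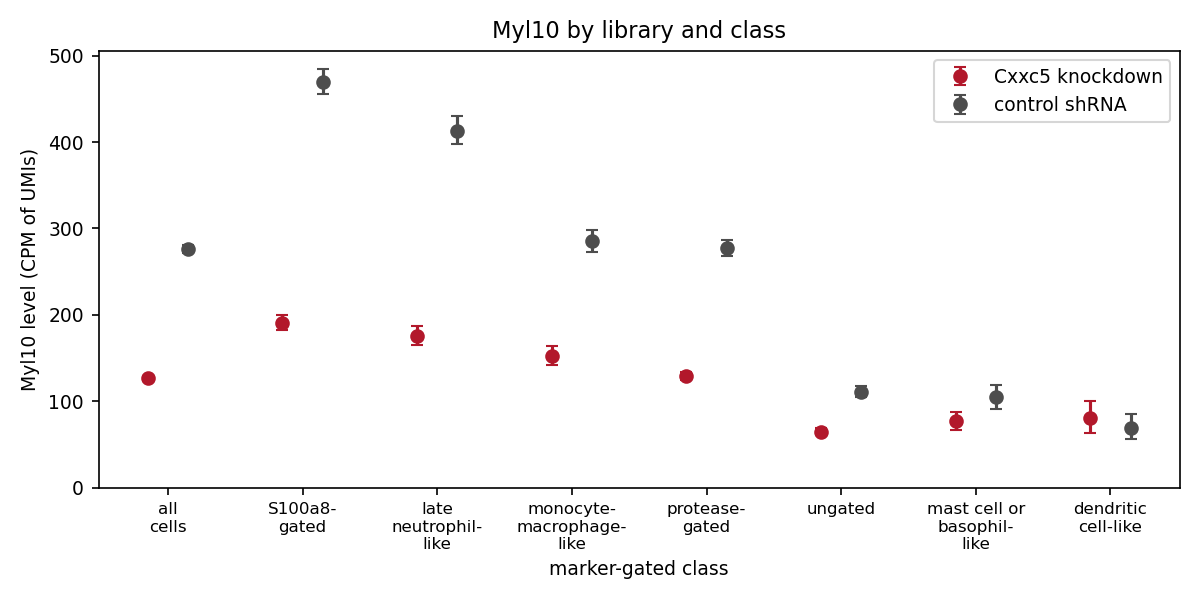
Myl10 level in CPM (y axis) over all cells and in each marker-gated class (x axis), with the Cxxc5 knockdown library left of the control library and 95% counting intervals as bars. Control levels reach 470 CPM in S100a8-gated cells and 69.2 CPM in dendritic cell-like cells, while knockdown levels lie between 64.6 and 191 CPM.

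The spread of Myl10 across classes was narrower in the knockdown library, where the highest class was 2.95-fold over the lowest, against 6.78-fold in the control library. Knockdown levels ran from S100a8-gated through late neutrophil-like, monocyte-macrophage-like, protease-gated, dendritic cell-like and mast cell or basophil-like to ungated cells. Of these neighbours, the intervals of S100a8-gated and late neutrophil-like, of dendritic cell-like and mast cell or basophil-like, and of mast cell or basophil-like and ungated cells overlapped. In the control library the first 4 classes came in the same order, followed by ungated, mast cell or basophil-like and dendritic cell-like cells. There the intervals of monocyte-macrophage-like and protease-gated cells overlapped, as did those of ungated and mast cell or basophil-like cells.

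The members of the motor did not show the class pattern of Myl10. As background for the counts that follow, 30.7% of genes were at least 1.2-fold apart in either direction in dendritic cell-like cells, 22.4% in mast cell or basophil-like, 18.2% in late neutrophil-like, 8.42% in S100a8-gated, 8.98% in monocyte-macrophage-like, 3.89% in protease-gated and 4.13% in ungated cells. Myl6 stayed within 1.2-fold in 7 of 7 classes, with log2 ratios from -0.21 in dendritic cell-like to 0.05 in monocyte-macrophage-like cells. Without cells rich in granule protease or S100a8 and S100a9 UMIs, an alternative chosen after seeing the data, the dendritic cell-like ratio was -0.29 (-0.44 to -0.14), past 1.2-fold, with 708 CPM in the knockdown and 864 CPM in the control library. The level of Myl6 was highest in late neutrophil-like cells, at 1280 CPM in the knockdown and 1304 CPM in the control library, and lowest in ungated cells, at 556 and 558 CPM.

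Myl12a was below the control in all 7 classes with every interval under 0, by a log2 ratio between -0.33 and -0.07. The share of all genes with an interval under 0 was not computed, so nothing is read from that count. Among genes of at least 50 CPM, between 11.4% (dendritic cell-like) and 20.8% (protease-gated) had a lower ratio than Myl12a. Myl12a passed 1.2-fold in dendritic cell-like cells, with 316 CPM in the knockdown and 397 CPM in the control library (-0.33, -0.54 to -0.12). With gates set on cells thinned to equal depth, or made 1.5 times stricter, that class held too few cells to be compared. Myl12b stayed within 1.2-fold in 7 of 7 classes, from -0.19 in mast cell or basophil-like to 0.21 in dendritic cell-like cells. Both regulatory chains were highest in late neutrophil-like cells, where Myl12a had 488 CPM in the knockdown and 532 CPM in the control library and Myl12b 356 and 358 CPM. In the control library that Myl12b interval (343 to 373 CPM) overlapped the one of mast cell or basophil-like cells (303 to 351 CPM).

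Myh9 was below the control in all 7 classes, by -0.40 to -0.18 on the log2 scale, with 4 of the intervals under 0. For this count too the share of all genes was not computed. Myh9 was at least 1.2-fold lower in 3 classes. Dendritic cell-like cells had 51.7 CPM in the knockdown and 68.5 CPM in the control library, with an interval that spanned 0 (-0.40, -0.93 to 0.11). Mast cell or basophil-like cells had 47.2 and 61.5 CPM in the knockdown and control libraries (-0.38, -0.73 to -0.03), and monocyte-macrophage-like cells 41.0 and 51.9 CPM (-0.34, -0.59 to -0.09). The dendritic cell-like class thus had the lowest ratio for Myh9 and the highest for Myl10 and Myl12b, each with an interval that spanned 0. Nothing is read from that order. The plot of member ratios by class shows these values.

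**Figure D2:**
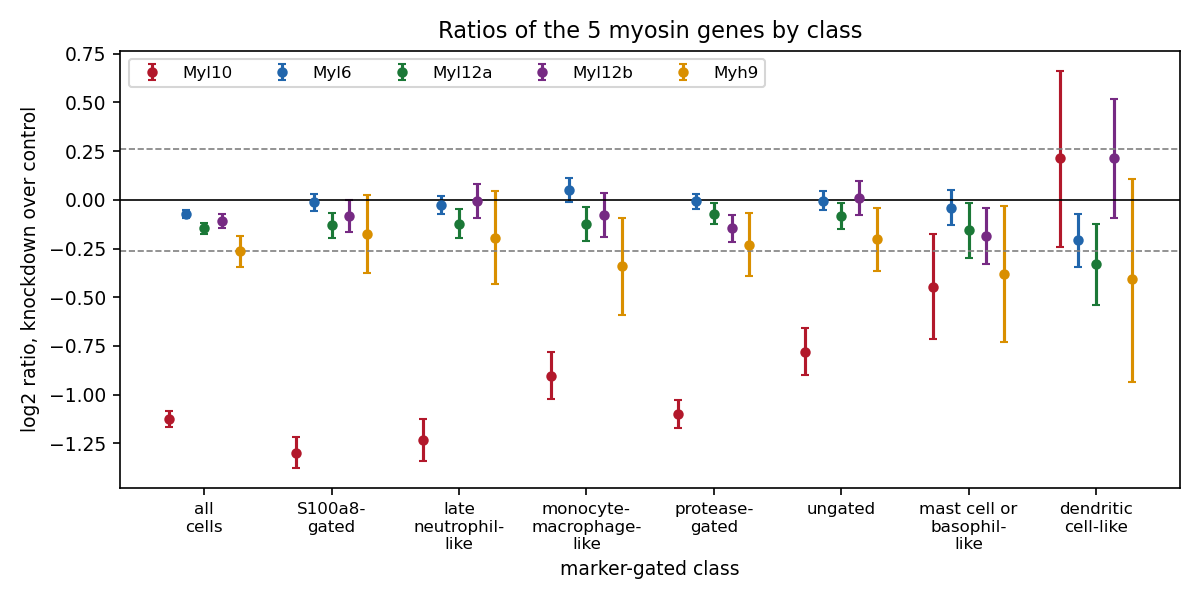
Log2 ratio of knockdown over control CPM (y axis) for each of the 5 members, over all cells and by marker-gated class (x axis), with 95% counting intervals as bars and lines at 1.2-fold. Myl10 lies between -1.30 and -0.45 in 6 classes and at 0.21 in dendritic cell-like cells, while the other 4 members lie between -0.40 and 0.21 in every class.

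Myl10 was also expressed as a share that needs no library total. It uses the same Myl10 UMIs whose difference chose the set, so it is a description and no separate support. Myl10 made up 18.8% (18.4 to 19.2%) of the UMIs of the 3 regulatory light chain genes in the knockdown library and 31.6% (31.1 to 32.0%) in the control library. The share was 22.8% in knockdown and 40.1% in control S100a8-gated cells, 20.3% and 33.8% in protease-gated cells, and 17.2% and 31.7% in late neutrophil-like cells. It was 22.2% and 33.2% in knockdown and control monocyte-macrophage-like cells, and 13.2% and 20.2% in ungated cells. In mast cell or basophil-like cells the share was 11.4% (10.1 to 12.9%) in the knockdown and 13.5% (11.9 to 15.2%) in the control library, and in dendritic cell-like cells 14.1% (11.3 to 17.3%) and 11.2% (9.19 to 13.6%). The intervals of knockdown and control overlapped in the last 2 classes and in no other.

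Over all cells, a smaller share of knockdown cells held any Myl10 UMI. The share was 50.8% of knockdown cells and 74.7% of control cells at full depth. With each cell thinned to 5000 UMIs, and 641 knockdown and 115 control cells dropped as too shallow, it was 37.4% (36.1 to 38.7%) of 5363 knockdown cells and 55.3% (53.5 to 57.2%) of 2797 control cells. The mean was 0.675 UMIs per thinned knockdown cell and 1.38 per thinned control cell. Of these cells, 1.83% in the knockdown and 7.51% in the control library held 5 or more UMIs, and 21.7% and 22.6% held exactly 1. A lower mean alone shrinks the upper end by a larger factor, so no separate difference in cells rich in Myl10 is read from this. The plot of Myl10 UMIs per cell shows both distributions.

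By class, the thinned share was 49.7% in knockdown and 77.9% in control S100a8-gated cells, 47.6% and 74.5% in late neutrophil-like cells, and 40.3% and 61.4% in protease-gated cells. It was 39.3% and 51.3% in knockdown and control monocyte-macrophage-like cells, and 23.1% and 35.2% in ungated cells. In mast cell or basophil-like cells the shares were 23.6% (18.7 to 29.0%) in the knockdown and 22.7% (16.2 to 30.2%) in the control library, with overlapping intervals. Dendritic cell-like cells had 21.2% (13.1 to 31.4%) in the knockdown and 22.5% (14.3 to 32.6%) in the control library, also overlapping, at full-depth medians of 6741 and 12916 UMIs. No class known to lack Myl10 was at hand, so how much of these low shares was free RNA was not tested. Thinned shares over all cells were 96.0% of knockdown and 95.4% of control cells for Myl6, 79.8% and 81.8% for Myl12a, and 63.5% and 65.3% for Myl12b, with overlapping intervals. For Myh9 they were 18.7% (17.7 to 19.8%) of knockdown and 22.7% (21.1 to 24.3%) of control cells, and the intervals did not overlap. Cells of a library are no replicates of its condition, and the share of all genes with such intervals apart was not computed. Nothing is read from which members overlapped.

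**Figure D3:**
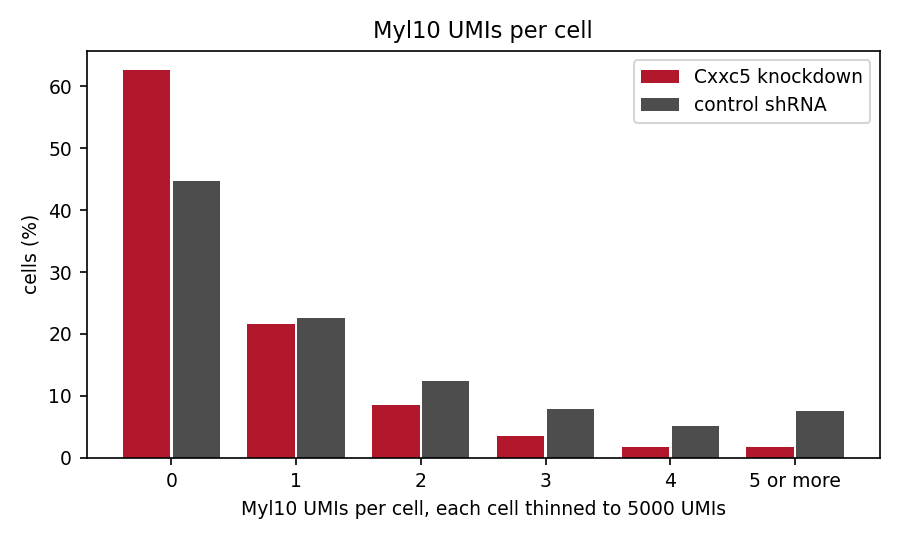
Percent of cells (y axis) by number of Myl10 UMIs after thinning to 5000 UMIs per cell (x axis), with knockdown bars left of control bars. No Myl10 UMI was held by 62.6% of knockdown and 44.7% of control cells, and 5 or more by 1.83% of knockdown and 7.51% of control cells.

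Cells of all classes were ordered together by the neutrophil markers S100a8 and S100a9, so cell types are mixed along the order. The steps were under 5, 5 to 50, 50 to 200, 200 to 1000 and 1000 or more UMIs of S100a8 and S100a9 per 10000 UMIs. Across these steps Myl10 had 82.7, 143, 187, 213 and 125 CPM in the knockdown library, against 138, 323, 483, 474 and 324 CPM in the control library. Both libraries thus had a peak in the middle of the range and a lower level at its top, and the log2 ratio was -0.74, -1.18, -1.37, -1.15 and -1.37. Myl6 had no such peak: it was highest in the last step, at 1416 CPM in the knockdown and 1417 CPM in the control library, with ratios between -0.06 and 0.01. Myl12a and Myl12b were also highest in the last step, at 521 and 541 CPM for Myl12a and 355 and 359 CPM for Myl12b in the knockdown and control libraries.

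Among cells under the S100a8 gate, Myl10 was set against the granule protease markers in the same way. In the steps under 20, 20 to 75, 75 to 150, 150 to 250 and 250 or more UMIs per 10000, it had 64.9, 54.1, 59.9, 108 and 209 CPM in the knockdown library, against 51.3, 64.0, 124, 262 and 420 CPM in the control library. The lowest step had a log2 ratio of 0.34 with an interval that spanned 0 (-0.06 to 0.73), and the next had -0.24 (-0.47 to -0.01). The 3 steps above had -1.05, -1.28 and -1.01. In these cells Myl10 was more than 1.2-fold lower from 75 protease marker UMIs per 10000 upward, the steps where its control level was highest too. The share of all genes past 1.2-fold was not computed by step. The steps under 75 also held 100 knockdown and 94 control dendritic cell-like cells, and 208 and 111 mast cell or basophil-like cells. Protease level and class are thus mixed, and their parts were not tested. Myh9 ran the other way, highest in the step poorest in proteases, at 62.2 CPM in the knockdown and 89.0 CPM in the control library, and lowest in the richest, at 34.0 and 37.6 CPM.

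**Figure D4:**
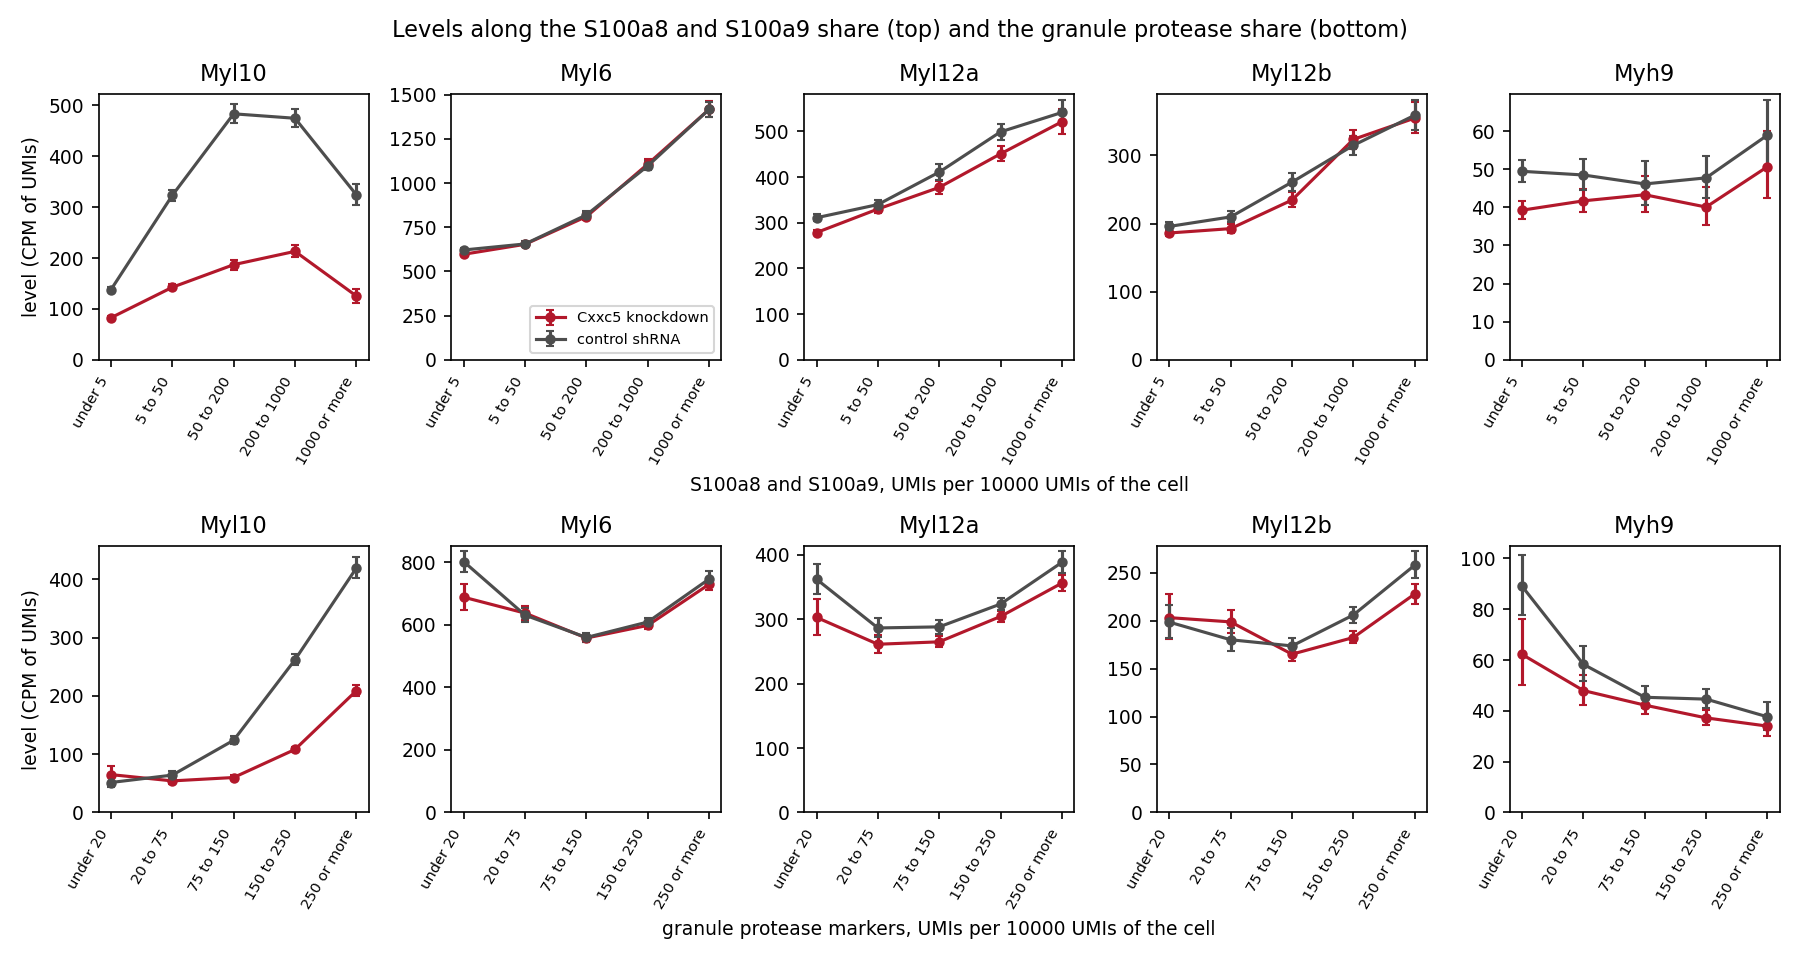
Level in CPM (y axes) of each member by step of the summed S100a8 and S100a9 UMIs (top row) and, among cells under the S100a8 gate, of the granule protease markers (bottom row), both per 10000 UMIs of the cell (x axes), for the knockdown and control libraries with 95% counting intervals. In the bottom row Myl10 lies at 64.9 and 51.3 CPM in knockdown and control cells of the lowest step, and at 209 and 420 CPM in those of the highest.

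Division was considered because the motor closes the cleavage furrow. Cells were split into 5 steps by late G2/M markers, from under 2 to 15 or more UMIs per 10000. Myl10 had log2 ratios of -0.92, -1.11, -1.15, -1.20 and -1.21, so it was lower in the knockdown library in each step. Myh9 had -0.62 in the lowest step, with 37.6 CPM in the knockdown and 58.0 CPM in the control library, and -0.13 in the highest, with 56.3 and 61.7 CPM.

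The genes whose class pattern was most like that of Myl10 were found by Pearson correlation of log2 CPM over 14 points, 7 classes in each of 2 libraries, among 2548 genes of at least 50 CPM. The points share library and depth, and the correlations are given as descriptions. The closest were Mpc2, a subunit of the mitochondrial pyruvate carrier (0.93), Trappc6b, of a vesicle tethering complex (0.91), Tmem38b, an intracellular cation channel (0.90), Mgst2, a microsomal glutathione transferase (0.90), and Cisd2, an iron-sulfur protein of the endoplasmic reticulum (0.89). Over all cells their log2 ratios were -0.24, -0.14, -0.47, -0.37 and -0.06. The members correlated less with Myl10, at 0.64 for Myl12a, 0.50 for Myl12b, 0.42 for Myl6 and -0.21 for Myh9. With the values centred within each library, which takes out the library difference, Mgst2 (0.95) stood above Mpc2 (0.94), Cisd2 had 0.92 and Tmem38b and Trappc6b 0.91, and the members had 0.61 for Myl12a, 0.53 for Myl12b, 0.44 for Myl6 and -0.63 for Myh9.

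By the same uncentred measure, Myl6 was closest to the actin-binding calponin Cnn2 (0.96), the Arp2/3 subunit Arpc3 (0.96) and the G protein modulator Gpsm3 (0.96). Myl12a was closest to Arpc3 (0.97), the actin monomer binder profilin Pfn1 (0.96) and the adaptor Dok3 (0.96), and Myl6 and Myl12a correlated at 0.94 with each other. Myl12b was closest to Rnf130 (0.94), Aldh2 (0.93) and Fis1 (0.92), and Myh9 to the integrin linker talin Tln1 (0.91), B2m (0.90) and the leukocyte tetraspanin Cd53 (0.86).

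The wider contractile machinery was described from lists chosen with earlier results known, counting genes that reached 10 CPM in either library. Among all 6743 such genes, 4.72% were at least 1.2-fold lower, 3.8% at least 1.2-fold higher (8.51% in either direction), and the median log2 ratio was 0.03. None of 13 other myosin II light and heavy chains reached that level, while all 5 members did.

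All 6 measured unconventional myosins were within 1.2-fold, from Myo1f, a leukocyte membrane myosin, at 35.7 CPM in the knockdown and 42.2 CPM in the control library (-0.24) to Myo18a at 12.5 and 11.7 CPM (0.09). Myo1g had 28.5 CPM in the knockdown and 29.0 CPM in the control library (-0.03), and Myo5a, a cargo-carrying myosin, 29.8 and 29.1 CPM (0.03). Of 13 measured actin filament and myosin IIA partners, 3 were lower and 0 higher, with a median of -0.11. S100a4, a calcium-binding protein that disassembles myosin IIA filaments, had 28.9 CPM in the knockdown and 77.1 CPM in the control library (-1.42). Tpm4, a tropomyosin of nonmuscle filaments, had 9.69 and 16.6 CPM in the knockdown and control libraries (-0.78), and beta-actin, Actb, 2634 and 3264 CPM (-0.31). Tpm1 had 40.2 CPM in the knockdown and 35.7 CPM in the control library (0.17), and Anln, the cytokinesis scaffold anillin, 18.5 and 17.4 CPM (0.08). The plot of list members shows S100a4, Tpm4 and Actb past the 1.2-fold line on the lower side, and no other gene of the lists shown.

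**Figure D5:**
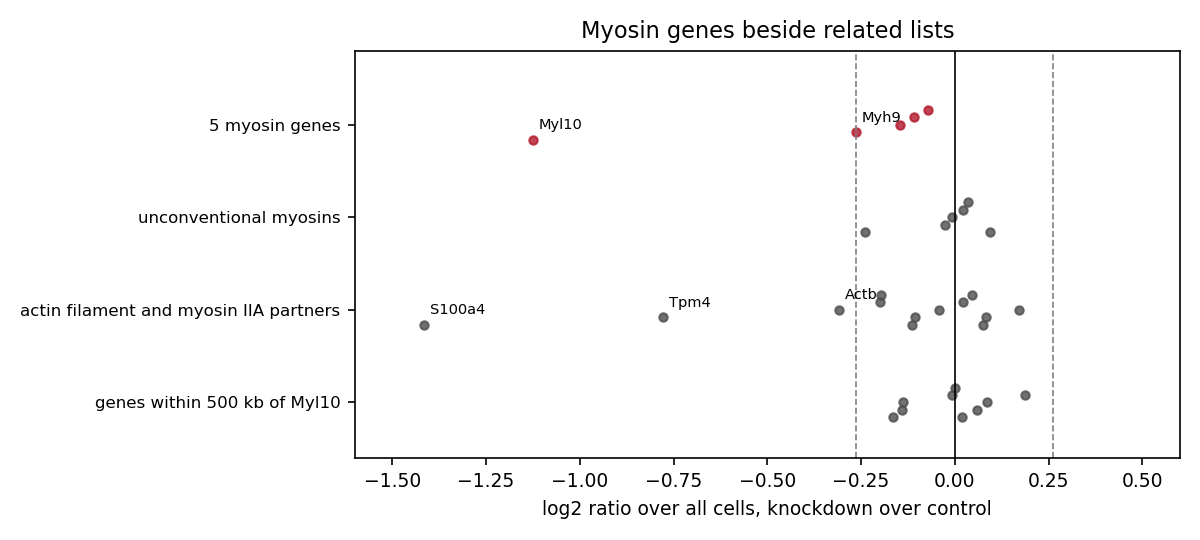
Log2 ratio of knockdown over control CPM (x axis) over all cells for the 5 members and for each gene of at least 10 CPM in the lists of contractile genes and of genes near Myl10 (rows), 1 point per gene, with dashed lines at 1.2-fold. S100a4 at -1.42, Myl10 at -1.13 and Tpm4 at -0.78 lie farthest below 0, and the 9 genes near Myl10 lie between -0.17 and 0.19.

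The neighbours of Myl10 on chromosome 5 were described as well. Of 28 genes annotated within 500 kb, 18 were in the matrices and 9 had at least 10 CPM, and all 9 were within 1.2-fold, with log2 ratios between -0.17 and 0.19. Since 8.51% of all genes at that level were past 1.2-fold in either direction, this count is near the background and nothing particular to the neighbourhood is read from it. The lowest was Cux1, a homeodomain transcription factor, at 55.2 CPM in the knockdown and 61.9 CPM in the control library. Prkrip1 was the highest, at 39.8 and 34.9 CPM. Fis1, a mitochondrial fission factor, had 182 CPM in the knockdown and 201 CPM in the control library (-0.14). Ift22 had -0.14, Cldn15 -0.01, Znhit1 0.02, Sh2b2 0.06 and Ap1s1 0.09 on the log2 scale, and Plod3 had 42.2 CPM in each library.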

How the data were processed

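The authors deposited raw UMI counts of genes by cell barcode. Libraries were made with the 10x Genomics 3′ kit, version 2, per the labels' protocols, and Cell Ranger 2.1.1 and the build mm10 are named in the submitters' processing notes. The annotation release is not given in the sources used here. Cells with at least 500 genes and at most 10% mitochondrial UMIs were kept, which removed 11 knockdown and 13 control barcodes. Scrublet (scanpy 1.11.5) marked 6 knockdown and 1 control cells as doublets, which was too few to use, so none were removed.

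Cells entered the first class whose summed markers reached, per 10000 UMIs, 5 (dendritic cell), 7 (mast cell or basophil), 50 (S100a8 and S100a9, split at 30 for late granule genes), 30 (monocyte-macrophage) or 150 (protease). These limits were set after marker distributions were seen. UMIs were summed per class, with exact Poisson intervals for CPM, exact intervals for ratios from the binomial split, and Clopper-Pearson intervals for shares (scipy 1.17.1). Ratios were run on counts simulated with counting error alone, the model the intervals assume, so that run checked only the code. All 5 members passed the minimum of 20 CPM. Named genes were the members, the 2 highest and 2 lowest of each list, those near Myl10 and the closest correlates. Actb, Myl6b, Mylpf and Myl4 were named after their values were seen. 1 list is not reported here. The members and lists were chosen with earlier results of these data known. Alternatives covered scaling, filters, thinning, gates, the richest cells and class shares. 1 was added after seeing the data.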

Additional observations from a re-analysis of the deposited data

Results flagged for a closer look

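Myl10 had log2 ratios of knockdown over control of opposite sign in different classes: -1.30 in S100a8-gated cells and 0.21 in dendritic cell-like cells. The difference between these classes was not tested, because each condition had 1 library. The interval of the dendritic cell-like ratio spanned 0 (-0.24 to 0.66), and that class held 76 Myl10 UMIs in the knockdown and 95 in the control library.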

How the results depend on the processing

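Over all cells, Myl10 was lower in the knockdown library under every alternative tried, with log2 ratios from -1.16 to -1.03. It was -1.03 in cells thinned to 5000 UMIs, -1.09 with class shares held at the control's, and -1.08 with cells weighted equally. Myl6 ranged from -0.11 to -0.01, Myl12a from -0.18 to -0.11, Myl12b from -0.14 to -0.07 and Myh9 from -0.35 to -0.24. The number of members other than Myl10 at least 1.2-fold apart was 1 (Myh9), but 0 without the cell filter, 0 without the 10 richest cells and 0 with class shares held. Myl10 was at least 1.2-fold lower in 6 of 7 classes, and in 5 of the 6 that kept enough cells with gates 1.5 times stricter. There the mast cell or basophil-like ratio reversed to 0.22. It was -0.74 with gates 1.5 times looser and -0.81 with gates set on cells thinned to 5000 UMIs. The ungated ratio of -0.78 became -1.03 with stricter, -0.54 with looser and -0.96 with thinned gates. The monocyte-macrophage-like ratio of -0.90 became -0.59, -1.03 and -0.97 in the same order. The cause of these shifts was not tested. The knockdown minus control difference in the share of cells with a Myl10 UMI was -23.9 percentage points at full depth and -17.9 after thinning, and for Myl6 -0.79 and, reversed, 0.622. The difference in the Myl10 share of regulatory light chain UMIs was -12.8 points over all cells. By class it was 2.86 in dendritic cell-like, -2.06 in mast cell or basophil-like, -14.5 in late neutrophil-like, -17.4 in S100a8-gated, -10.9 in monocyte-macrophage-like and -6.95 in ungated cells. No paired analysis was possible because each condition had 1 library. Shallower knockdown cells limit shares of cells and gates, and 1 library per condition leaves the spread between cultures unknown.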

Other observations

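Without cells that held many granule protease or S100a8 and S100a9 UMIs, an alternative chosen after seeing the data, mast cell or basophil-like cells had 40 Myl10 UMIs or 24.2 CPM in the knockdown library (208 cells) and 50 UMIs or 36.6 CPM in the control library (111 cells), a log2 ratio of -0.59 (-1.23 to 0.04). Dendritic cell-like cells had 60 UMIs or 82.4 CPM in 100 knockdown cells and 75 UMIs or 58.5 CPM in 94 control cells (0.50, -0.02 to 1.0). Among myosin II light chains below 10 CPM, Myl6b had 5.07 CPM in the knockdown and 6.27 CPM in the control library, Mylpf 4.76 and 5.68 CPM, and Myl4 2.56 and 2.19 CPM.

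The most Myl10 UMIs in a single cell were 21 in the knockdown and 59 in the control library. The variance of thinned Myl10 UMIs per cell over their mean was 2.06 in the knockdown and 2.49 in the control library, against 1.49 and 1.71 for Myl6, 1.2 and 1.27 for Myl12b, 1.13 and 1.09 for Myl12a, and 1.02 and 1.01 for Myh9 in the knockdown and control libraries. Spread between cells beyond counting error is left out of the intervals of levels and ratios above.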
